A study of Mus musculus with 6 samples.

Results

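Immediate early genes are the genes that a cell transcribes within minutes of stimulation, before any new protein has been made. A list of 35 activity-induced immediate early genes was followed in the hippocampus of 3 Ahr-KO mice and 3 wild-type mice. Each of the 6 mice had its own array. Ahr-KO mice lack the aryl hydrocarbon receptor (AHR), a ligand-activated transcription factor. The hippocampi came from hemibrains, and the labels give no allele, strain, age, sex, housing or behavioural treatment for either genotype. Members were the probe sets that the platform annotation pairs with exactly 1 listed symbol, and the brightest was taken where a gene had several. All 35 listed genes were measured, out of 22180 genes on the arrays, and none was removed by a filter on low values. All values are log2 signals of whole-transcript arrays, and a difference of 1 is a doubling of signal. A level of one gene cannot be set against that of another on this scale, because probe sets differ in brightness.

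In neurons, calcium entry through NMDA receptors and voltage-gated channels activates kinases that phosphorylate CREB, bound at cAMP response elements, and the ternary complex of SRF with ELK factors at serum response elements. Transcription of the early genes follows at once and stops soon after, because their RNAs are unstable and several of their products shut the signal off again. Many encode transcription factors that drive a later wave of genes, and others act directly at synapses or on signalling, so that Fos, Egr1 and Arc RNA are widely used in the hippocampus as marks of neurons that were recently active. The level of such RNAs in a dissected tissue can therefore depend on the time shortly before collection, which the labels do not describe. How far this holds for each member was not tested.

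Ahr itself read 6.62, 6.91 and 6.74 log2 in Ahr-KO, against 7.68, 7.50 and 7.44 in wild type, a difference of -0.78 ± 0.10 (SE), with no overlap (limma adjusted p = 0.32). The sources used here do not say which exons the allele lacks or where the Ahr probe set lies, so whether this value checks the labels is unknown. All 10 hippocampal neuron genes checked, such as Prox1 of granule cells and Wfs1 of CA1 cells, had mean signals above the median signal of the genes tested, which is only a rough guide to their presence, since probe sets differ in brightness. The 6 arrays had medians of 5.79 to 5.85. Genes of the choroid plexus stood high on 2 arrays, with Ttr, the transthyretin secreted by that epithelium, at 13.15, 9.06 and 8.64 log2 in Ahr-KO, against 8.90, 12.64 and 9.03 in wild type. Results are therefore also given without these 2, Ahr-KO array 1 and wild-type array 2.

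Promoter sequence is shown for 6 members that carry the pattern described below, chosen after their values were seen. Fos is shown with Btg2, Npas4 and Nr4a2, which had r of at least 0.8 with it across the 6 arrays. Of those only Btg2 passed after adjustment in the permutation tests given below. Ptgs2 and Nr4a3 had higher values in Ahr-KO and did not follow Fos. Each window runs from 250 bases before to 50 bases after a RefSeq start site in GRCm38.p6, 5′ to 3′ on the gene's strand. Capitals mark every short cAMP response element (TGACG, or CGTCA on the other strand) and every core of the AHR binding site (GCGTG, or CACGC on the other strand).
Fos (chr12:85473640-85473939, plus strand): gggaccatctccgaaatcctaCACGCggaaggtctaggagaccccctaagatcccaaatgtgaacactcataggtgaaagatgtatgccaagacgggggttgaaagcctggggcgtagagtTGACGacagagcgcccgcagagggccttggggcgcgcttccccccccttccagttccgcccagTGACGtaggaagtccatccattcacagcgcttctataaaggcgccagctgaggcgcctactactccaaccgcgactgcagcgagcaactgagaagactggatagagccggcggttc
Btg2 (chr1:134079106-134079405, minus strand): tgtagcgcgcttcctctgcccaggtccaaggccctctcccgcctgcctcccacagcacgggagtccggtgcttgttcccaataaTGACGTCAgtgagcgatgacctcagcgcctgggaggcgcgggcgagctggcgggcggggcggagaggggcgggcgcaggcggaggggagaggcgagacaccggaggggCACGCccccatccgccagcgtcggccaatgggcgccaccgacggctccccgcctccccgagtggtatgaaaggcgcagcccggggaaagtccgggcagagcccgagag
Npas4 (chr19:4989922-4990221, minus strand): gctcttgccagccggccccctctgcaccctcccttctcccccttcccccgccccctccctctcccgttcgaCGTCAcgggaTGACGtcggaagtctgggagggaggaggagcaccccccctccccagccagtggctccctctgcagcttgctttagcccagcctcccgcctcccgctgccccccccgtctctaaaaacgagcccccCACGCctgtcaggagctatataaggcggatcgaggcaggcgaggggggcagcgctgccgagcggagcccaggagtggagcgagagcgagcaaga
Nr4a2 (chr2:57123954-57124253, minus strand): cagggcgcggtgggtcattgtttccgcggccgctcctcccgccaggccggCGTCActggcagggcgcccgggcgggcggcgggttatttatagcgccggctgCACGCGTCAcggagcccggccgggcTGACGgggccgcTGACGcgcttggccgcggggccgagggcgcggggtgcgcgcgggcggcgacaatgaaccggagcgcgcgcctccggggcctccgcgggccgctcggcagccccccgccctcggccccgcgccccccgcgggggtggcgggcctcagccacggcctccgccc
Ptgs2 (chr1:150099781-150100080, plus strand): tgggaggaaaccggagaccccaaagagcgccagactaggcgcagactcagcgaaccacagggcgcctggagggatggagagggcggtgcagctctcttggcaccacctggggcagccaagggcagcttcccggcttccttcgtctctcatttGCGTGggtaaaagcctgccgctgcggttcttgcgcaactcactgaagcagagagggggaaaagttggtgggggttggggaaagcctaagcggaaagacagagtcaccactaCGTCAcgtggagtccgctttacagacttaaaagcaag
Nr4a3 (chr4:48045055-48045354, plus strand): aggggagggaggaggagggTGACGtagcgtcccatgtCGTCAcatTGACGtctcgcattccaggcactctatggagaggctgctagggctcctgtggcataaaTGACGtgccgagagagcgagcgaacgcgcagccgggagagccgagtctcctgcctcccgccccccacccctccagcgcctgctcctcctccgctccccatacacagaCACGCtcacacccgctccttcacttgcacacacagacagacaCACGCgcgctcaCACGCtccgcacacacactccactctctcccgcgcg
The 2 short elements of Btg2 overlap and form 1 whole cAMP response element, TGACGTCA. In Nr4a2 an AHR core and a short element overlap, and they appear as 1 run of capitals.

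RefSeq promoter windows were matched by symbol for 28 of the 35 members, 3 of which have more than 1 window. Egr1, Egr3, Arc, Ier2, Sik1, Nptx2 and Trib1 had no matched window and were not scanned. Sites more than 250 bases before a start site were not scanned in any gene, Fos included. A gene was counted if any window held the motif on either strand. The short cAMP response element was present in 20 of the 28 members (71.4%), against 23.0% of 27025 genes. The whole element TGACGTCA, which contains the short one on each strand, was present in 4 members, Btg2, Dusp1, Maff and Plk2 (14.3%), against 2.03% of all genes. An AHR core was present in 19 members (67.9%), against 35.2% of all genes. The CArG box bound by SRF occurred in Dusp5 and Egr2 (7.14% against 1.81%), and an AP-1 site (TGACTCA or TGAGTCA) in Csrnp1 alone (3.57% against 5.95%). The GC content of the members' windows was also higher, with a median of 62.3% against 52.7% over all windows. Its part in these counts was not tested. These are matches of letters, and binding was not measured here.

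No immediate early gene passed the threshold between genotypes, although most had slightly higher values in Ahr-KO. The mean was higher in Ahr-KO for 28 of the 35 genes (80.0%), against 50.7% of all genes tested, and lower for 7. The median difference over the 35 was 0.14 log2, against 0.00 over all genes. With limma's moderated test, adjusted over the 22180 genes, 0 members had an adjusted p under 0.05, and the share of all genes that passed was likewise 0%. Ahr itself did not pass (limma adjusted p = 0.32), so a gene that did not pass cannot be taken as unchanged. At an unadjusted p under 0.05 there were 6 members, all with higher values in Ahr-KO (17.1%), where 3.53% of all genes were higher and 2.65% lower by the same rule. These 6 were Sik1, Ptgs2, Nr4a3, Gadd45g, Trib1 and Gadd45b. Ahr-KO and wild-type values were fully separated in 8 members (22.9%), against 11.9% of all genes. Of these 8, 7 were higher in Ahr-KO, against 6.18% of all genes, and 1 was lower, against 5.75%. An exact permutation test between 3 and 3 arrays cannot go below 0.1, and none was run.

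The shift was not even over the arrays. The mean over the 35 genes, each taken relative to its own mean over the 6 arrays, was -0.03, 0.21 and 0.02 log2 on Ahr-KO arrays 1 to 3, against -0.02, -0.15 and -0.03 on wild-type arrays 1 to 3. Ahr-KO array 2 stood above the rest and wild-type array 2 below them, and the other 4 arrays lay within 0.05 log2 of 0. The difference between genotypes was 0.13 with all arrays and 0.06 to 0.18 when 1 array was left out, lowest without Ahr-KO array 2 (0.06) and next lowest without wild-type array 2 (0.09). The number of genes with a higher mean in Ahr-KO was 24 and 26 in these 2 cases (68.6% and 74.3%, against 49.4% and 51.2% of all genes). Without both arrays the difference was 0.02, with 22 higher genes (62.9%, against 49.8% of all genes). These 2 arrays were singled out because they had the highest and the lowest mean over these same genes, so leaving them out lowers the difference by construction, and the value of 0.02 is no estimate of the genotype difference. Leaving out the 2 arrays high in choroid plexus genes instead gave a difference of 0.14 and 24 genes (68.6%, against 51.8% of all genes). In a tissue sample, fewer cells of a type and less RNA per cell cannot be told apart.

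**Figure D1:**
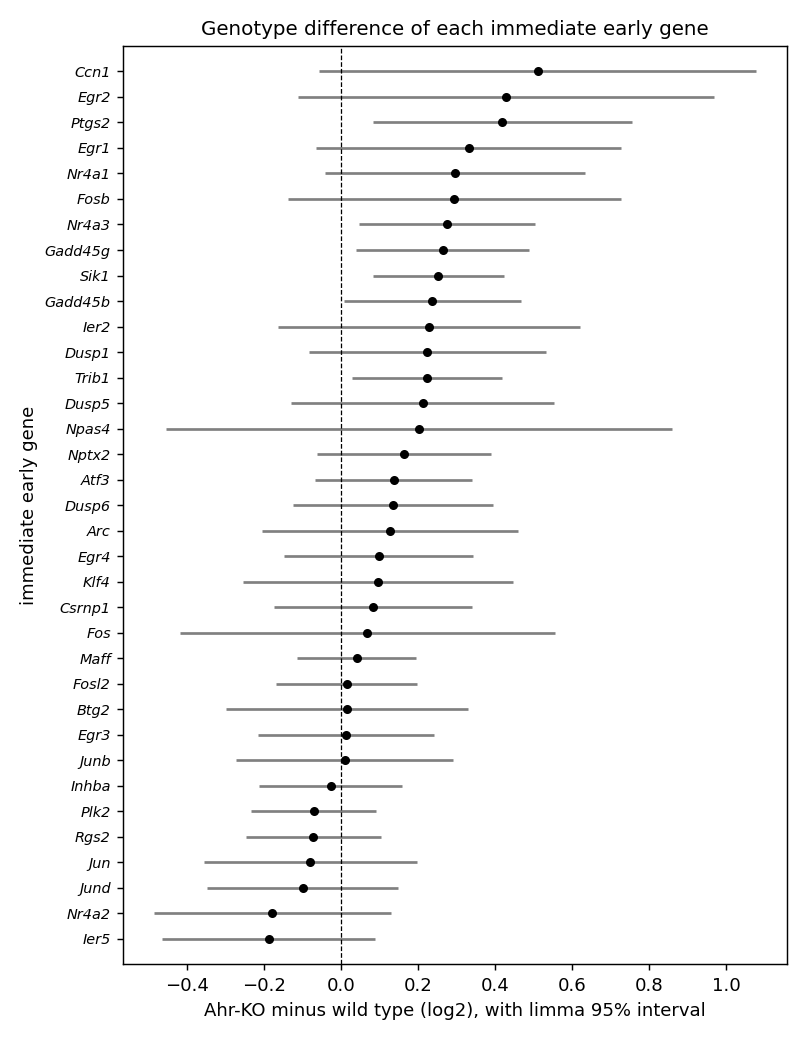
Difference of each of the 35 immediate early genes in log2 signal, Ahr-KO minus wild type (horizontal axis; points, 3 arrays per genotype), with limma's 95% interval (lines). Intervals of 6 genes lie wholly above 0 and those of the other 29 include it; Ccn1, at the top, has a difference of 0.51 and an interval of -0.06 to 1.08.

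Among the subunits of AP-1, the dimeric factor of FOS and JUN proteins, no gene passed the threshold. Fos read 6.85, 7.53 and 6.97 log2 in Ahr-KO, against 7.19, 6.65 and 7.31 in wild type. Its highest value was in an Ahr-KO mouse and its lowest in a wild-type mouse, the groups overlapped, and the difference was 0.07 ± 0.21 (SE; 95% interval -0.42 to 0.56; limma adjusted p = 0.976). Without Ahr-KO array 2 the difference was -0.14, and without wild-type array 2 it was -0.13. Fosb, whose truncated product accumulates with repeated activity, read 6.88, 7.31 and 6.79 log2 in Ahr-KO, against 7.07, 6.39 and 6.63 in wild type. The groups again overlapped and the extremes were the same 2 arrays (0.29 ± 0.19, SE, and 0.14 without either of them). Junb read 7.998, 8.48 and 8.22 log2 in Ahr-KO, against 8.32, 8.21 and 8.14 in wild type, a difference of 0.01. Jun (-0.08), Jund (-0.10) and Fosl2 (0.01) stayed within the spread of the arrays, and a second, dimmer Jund probe set differed by -0.07. Atf3, a stress-induced partner of JUN, read 6.15, 6.18 and 6.12 log2 in Ahr-KO, against 6.11, 5.85 and 6.09 in wild type. Its groups did not overlap, by a gap of under 0.05 log2. Maff, a small MAF protein without an activation domain, had the narrowest range of all 35 genes (0.08 log2). Its groups also did not overlap, and the difference of its means was 0.04. The probe sets of Atf3 and Maff were both dimmer than the median probe set.

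The zinc finger factors had higher means in Ahr-KO in 5 of 5 cases, none past the threshold. Egr1, a transcription factor required for lasting synaptic potentiation in mice, read 8.89, 9.56 and 9.26 log2 in Ahr-KO, against 9.06, 8.66 and 8.995 in wild type. Ahr-KO array 2 was highest and wild-type array 2 lowest, with the groups overlapping (0.33 ± 0.17, SE; 95% interval -0.07 to 0.73; limma adjusted p = 0.817). Without Ahr-KO array 2 it was 0.17. Egr2, known also for its role in myelinating Schwann cells, read 6.64, 7.56 and 6.65 log2 in Ahr-KO, against 6.63, 6.29 and 6.64 in wild type. Its groups did not overlap, but 2 of 3 Ahr-KO values lay within 0.05 of 2 of the wild-type values, and the difference of 0.43 ± 0.24 (SE) became 0.12 without Ahr-KO array 2. Egr3 (0.01), Egr4 (0.10) and Klf4, a pluripotency factor that is also expressed in vessels (0.10), overlapped. Klf4 departed from the Egr genes on Ahr-KO array 2, where it read 5.82, its second lowest value.

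The 3 NR4A orphan nuclear receptors had different patterns. Nr4a3 read 9.58, 9.32 and 9.41 log2 in Ahr-KO, against 9.07, 9.31 and 9.10 in wild type. Every Ahr-KO value was above every wild-type value, with a gap of under 0.01 log2, and the difference was 0.27 ± 0.10 (SE; limma adjusted p = 0.796), or 0.20 to 0.35 when 1 array was left out. Nr4a1 read 9.82, 10.38 and 10.11 log2 in Ahr-KO, against 9.62, 9.87 and 9.95 in wild type, overlapping, with a difference of 0.29 ± 0.15 (SE; adjusted p = 0.817 with limma) that was 0.16 without Ahr-KO array 2. Nr4a2 had a lower mean in Ahr-KO, with 10.08, 10.48 and 10.25 log2 in Ahr-KO, against 10.52, 10.21 and 10.62 in wild type (-0.18 ± 0.13, SE; limma adjusted p = 0.858). Npas4, a bHLH-PAS factor like AHR that is induced by calcium in neurons and organises inhibitory synapses, read 8.41, 8.95 and 8.40 log2 in Ahr-KO, against 8.60, 7.68 and 8.87 in wild type. It spanned 1.27 log2 over the arrays because of the low wild-type array 2, and without that array its difference of 0.20 (95% interval -0.46 to 0.86) was -0.15.

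Of the 6 nuclear and growth regulators 5 averaged higher in Ahr-KO. Gadd45g, a stress sensor of the GADD45 family, read 7.50, 7.79 and 7.59 log2 in Ahr-KO, against 7.34, 7.27 and 7.48 in wild type, with no overlap (0.26 ± 0.10, SE; limma adjusted p = 0.797). Gadd45b, a relative linked in mice to activity-dependent DNA demethylation in the dentate gyrus, read 7.89, 8.21 and 8.01 log2 in Ahr-KO, against 7.70, 7.90 and 7.80 in wild type. Its lowest Ahr-KO value lay just under the highest wild-type value (0.24 ± 0.10, SE; adjusted p = 0.806 with limma), and without Ahr-KO array 2 the difference was 0.15. Ier2, a small nuclear protein, read 5.52, 6.04 and 5.60 log2 in Ahr-KO, against 5.63, 5.17 and 5.68 in wild type, and Btg2, an antiproliferative cofactor of mRNA decay, 7.50, 7.88 and 7.52 log2 in Ahr-KO, against 7.73, 7.38 and 7.75 in wild type. Both overlapped, with differences of 0.23 and 0.01. Csrnp1, an AXUD1-family nuclear protein (0.08), and Ier5, a relative of Ier2 with the most negative difference of the 35 (-0.19 ± 0.12, SE), overlapped too. The probe sets of Ier2 and Csrnp1 were dimmer than the median probe set.

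The kinase and phosphatase regulators held the member with the lowest p. Sik1, a salt-inducible kinase that phosphorylates the CREB coactivators of the CRTC family and so keeps them out of the nucleus, read 7.75, 7.86 and 7.91 log2 in Ahr-KO, against 7.61, 7.57 and 7.57 in wild type. The Ahr-KO arrays were all above the wild-type arrays, which lay within 0.05 log2 of each other. The difference was 0.25 ± 0.07 (SE), or 1.19-fold, ranked 242nd by p over all genes and did not pass (limma adjusted p = 0.77, and 0.549 to 0.972 over 16 alternatives). Leaving out 1 array gave 0.22 to 0.30. Trib1, a pseudokinase that recruits a ubiquitin ligase, read 6.58, 6.62 and 6.75 log2 in Ahr-KO, against 6.38, 6.36 and 6.54 in wild type, without overlap (0.22 ± 0.09, SE; adjusted p = 0.797 with limma). The dual-specificity phosphatase Dusp1, which inactivates p38, JNK and ERK, read 8.60, 9.06 and 8.82 log2 in Ahr-KO, against 8.62, 8.41 and 8.77 in wild type and overlapped (0.22 ± 0.13, SE). The ERK phosphatases Dusp5 (0.21) and Dusp6 (0.14) overlapped as well, and a second, much dimmer Dusp6 probe set differed by 0.01. Without wild-type array 3 Dusp5 differed by 0.08. Plk2, a polo-like kinase that weakens overactive synapses, was the 1 member lower in Ahr-KO without overlap, at 10.72, 10.85 and 10.81 log2 in Ahr-KO, against 10.86, 10.87 and 10.87 in wild type. The gap there was under 0.01 log2 and the 3 wild-type values lay within 0.02 log2 of each other (-0.07 ± 0.07, SE; adjusted p = 0.893 with limma). Rgs2, a GTPase activator for Gq-coupled signalling, differed by -0.07, and its second, dimmer probe set by 0.02.

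Of the effectors Ptgs2 had the lowest p. Ptgs2 encodes cyclooxygenase 2, which makes prostaglandins, and read 9.71, 9.34 and 9.74 log2 in Ahr-KO, against 8.97, 9.44 and 9.12 in wild type. Ahr-KO arrays 1 and 3 were above all wild-type arrays and Ahr-KO array 2 was below wild-type array 2. The difference was 0.42 ± 0.15 (SE; 95% interval 0.08 to 0.76), or 1.34-fold, and 0.32 to 0.55 with 1 array left out (limma adjusted p = 0.783, and 0.274 to 0.972 over 16 alternatives). The limma adjusted p of 0.274 came from the run without Ahr-KO array 2 and wild-type array 2. Those arrays were chosen on these same genes, and the Ptgs2 difference there was 0.68. Ccn1, a secreted matrix protein formerly named Cyr61, had the widest range of the 35 genes (1.44 log2) and read 7.23, 8.21 and 7.45 log2 in Ahr-KO, against 7.24, 6.77 and 7.34 in wild type. Ahr-KO array 2 was high and wild-type array 2 low while the other 4 arrays were within 0.22 of each other, and the difference of 0.51 ± 0.25 (SE; adjusted p = 0.817 with limma) was 0.22 without Ahr-KO array 2 and 0.34 without wild-type array 2. Arc, the capsid-like protein that drives removal of AMPA receptors from synapses, read 9.71, 10.32 and 10.01 log2 in Ahr-KO, against 9.85, 10.01 and 9.80 in wild type, overlapping, with a difference of 0.13 ± 0.15 (SE; limma adjusted p = 0.911) that was -0.03 without Ahr-KO array 2. Nptx2, a secreted pentraxin that clusters AMPA receptors (0.16), overlapped. So did Inhba, the activin A subunit, which read 6.56, 6.42 and 6.59 log2 in Ahr-KO, against 6.49, 6.64 and 6.52 in wild type (-0.03) and was lowest on Ahr-KO array 2.

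**Figure D2:**
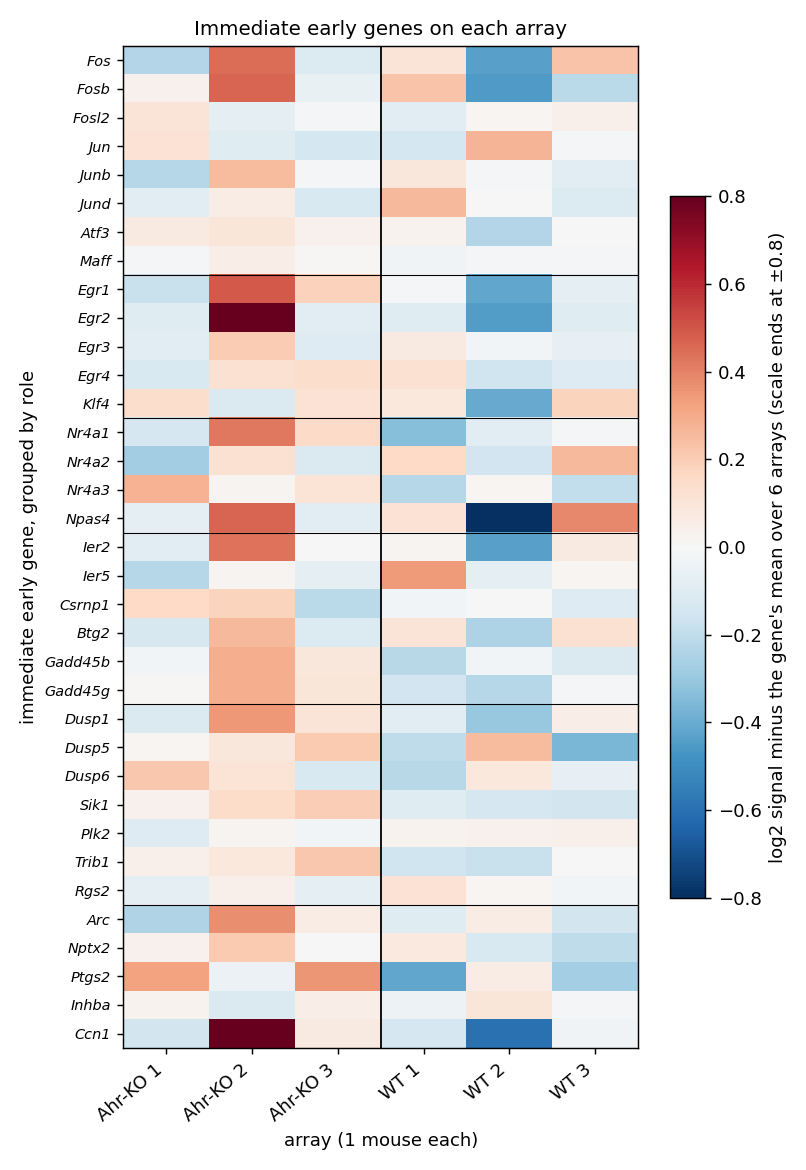
Log2 signal of each of the 35 immediate early genes (rows, grouped by role) on the 6 arrays (columns, Ahr-KO left of wild type, WT), relative to the gene's mean over the 6 arrays (colour; red higher, blue lower). Ahr-KO array 2 holds the highest value of 19 genes and wild-type array 2 the lowest of 14, while Ptgs2, Nr4a3, Jun and Inhba follow another order.

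Many of these genes varied together between mice of one genotype, while the share of strongly opposed pairs was near that over all genes. Ahr-KO array 2 held the highest value of 19 of the 35 genes (54.3%), against 19.2% of all genes, and wild-type array 2 the lowest of 14, against 16.1% of all genes. The median Pearson correlation over the 595 pairs of members was 0.27 across the 6 arrays, against 0.00 over all pairs of tested genes, as a description, since all pairs share the same 6 arrays. It was 0.31 after the genotype means had been removed, against 0.00. With Ahr-KO array 2 left out and the genotype means kept in, it was 0.04. Across the 6 arrays, pairs with r of at least 0.8 made up 9.75% of the member pairs, against 3.10% of all pairs, and pairs with r of -0.8 or less 2.52%, against 3.02%. With genotype means removed, pairs with r of at least 0.8 made up 14.6% of the member pairs, against 5.71% of all pairs. Pairs with r of -0.8 or less made up 7.73%, against 5.58%, which is near the share over all genes. The pairs share genes and arrays, and these shares were not tested. Ccn1 followed the mean of the other 34 members most closely (r = 0.99) and Inhba opposed it most (r = -0.85), both as descriptions over 6 arrays.

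Fos was used as the anchor, and each of the other 34 genes was correlated with it across the 6 arrays. Exact permutation tests ran over all 720 orders, two-sided and adjusted over the 34 relations. The smallest p that such a test can give is 0.00139. The orders took no account of genotype, and the arrays share tissue composition and normalization, so these p-values are descriptive. Btg2 ordered the 6 mice exactly as Fos did (r = 0.99, exact permutation p = 0.00139, adjusted p = 0.0472; rho = 1.00, exact p = 0.00278, adjusted p = 0.0472). Ier2 did the same (r = 0.94, exact permutation p = 0.00278, adjusted p = 0.0472; rho = 1.00, exact p = 0.00278, adjusted p = 0.0472). Npas4 came next (r = 0.93, exact permutation p = 0.00556, adjusted p = 0.0630; rho = 0.94, exact p = 0.0167, adjusted p = 0.189) and did not pass. Without Ahr-KO array 2 and wild-type array 2, the arrays farthest from the median of Fos, r was 0.97 for Btg2, 0.96 for Ier2 and 0.93 for Npas4 over the 4 that remained. Among those 4 both Ahr-KO mice were below both wild-type mice in Fos, Btg2, Ier2, Npas4 and Nr4a2, so r over the 4 follows that split.

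Of the 34 genes 8 had r of at least 0.8 with Fos (23.5%), against 3.4% of all genes, and with genotype means removed 9 did (26.5%), against 6.71%. The 5 others of the 8 were Dusp1 (r = 0.85; rho = 0.83), Ccn1 (0.84; 0.83), Egr2 (0.82; 0.54), Nr4a2 (0.81; 0.77) and Egr1 (0.80; 0.77), with exact permutation p = 0.0222 to 0.0653 for r and 0.0583 to 0.297 for rho. None of the 5 passed after adjustment (adjusted p = 0.134 to 0.247 for r and 0.331 to 0.594 for rho, from the exact permutation tests). Without the 2 arrays r was 0.28 for Dusp1, 0.06 for Ccn1, -0.41 for Egr2 and 0.04 for Egr1. These 4 relations were thus not seen in the plain r over the remaining arrays, where Fos splits by genotype. With genotype means removed over all 6 arrays r was 0.955 for Dusp1, 0.972 for Ccn1, 0.907 for Egr2 and 0.914 for Egr1, as a description. Nr4a2 had r = 1.00 over the 4 arrays that remained, where its values split by genotype as those of Fos did. The 2 arrays left out hold the extremes of Fos, so r over 4 arrays covers a narrower range of Fos by construction. Arc (r = 0.42; rho = 0.31), Nr4a1 (0.49; 0.49) and Junb (0.63; 0.54) were further from Fos (exact permutation p = 0.179 to 0.417 for r and 0.297 to 0.564 for rho, adjusted p = 0.406 to 0.567 and 0.594 to 0.737).

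In 7 genes the correlation with Fos was negative. Inhba had the most negative one (r = -0.94, exact permutation p = 0.00972, adjusted p = 0.0826; rho = -0.89, exact p = 0.0333, adjusted p = 0.283), and -0.75 without the 2 arrays. Its range was only 0.22 log2. Jun, although the partner of FOS in AP-1, had r = -0.72 and rho = -0.54 (exact permutation p = 0.0972 and 0.297; adjusted p = 0.331 and 0.594), and r = -0.39 without the 2 arrays. Ptgs2 and Nr4a3, which had higher values in Ahr-KO, had r = -0.53 and -0.47 (rho = -0.54 and -0.31; exact permutation p = 0.276 and 0.356, adjusted p = 0.522 and 0.526). Without the 2 arrays r was -0.89 and -0.96. There both Ahr-KO mice were above both wild-type mice in Ptgs2 and Nr4a3 and below them in Fos, so these r follow that split. Within genotypes the deviations of Ptgs2 and Nr4a3 ran against those of Fos (r = -0.93 and -0.91, as a description over 6 arrays). Sik1 had r = 0.22 with Fos and rho = 0.09 (exact permutation p = 0.665 and 0.919; adjusted p = 0.685 and 0.919).

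**Figure D3:**
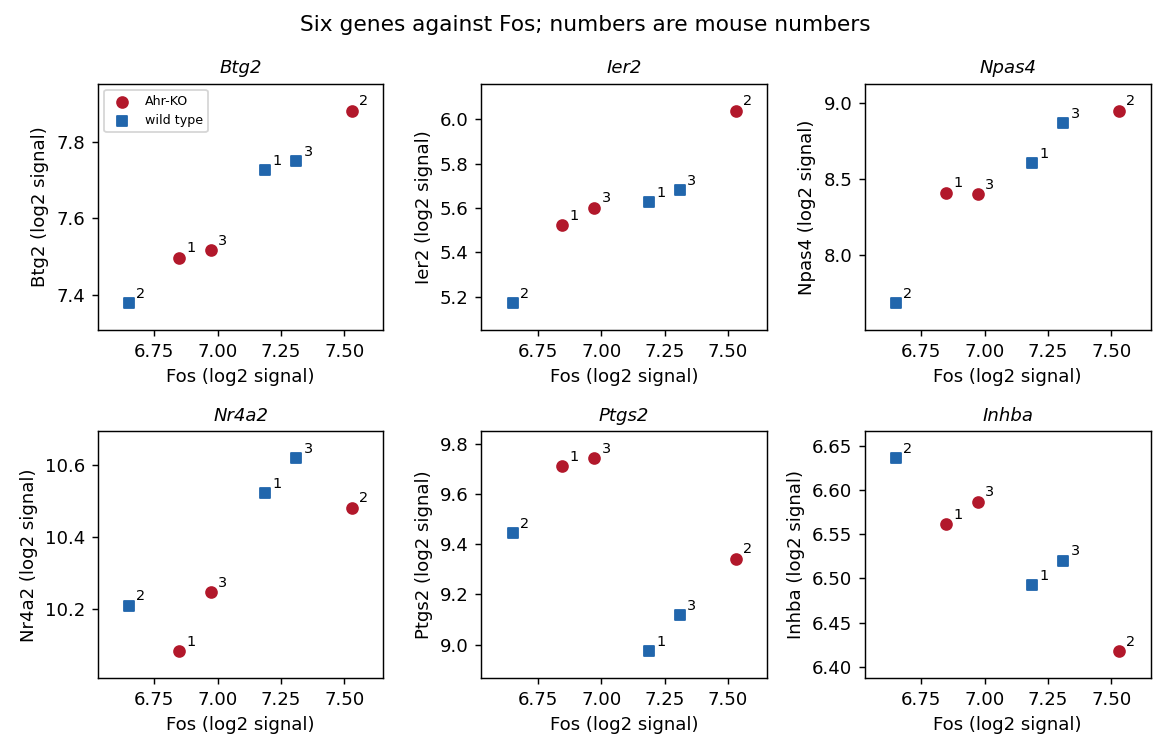
Log2 signal of Btg2, Ier2, Npas4, Nr4a2, Ptgs2 and Inhba (vertical axes) against Fos (horizontal axes) on the 6 arrays, with Ahr-KO as circles, wild type as squares and mouse numbers beside the points. Btg2, Ier2 and Npas4 climb with Fos through both genotypes (r = 0.99, 0.94 and 0.93), Inhba descends (r = -0.94), and Ptgs2 is higher in Ahr-KO than in wild type at the nearest level of Fos.

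Other genes of the pathway had smaller median differences, and the lists were not tested against each other. Of 22 measured factors upstream of the early genes 14 averaged higher in Ahr-KO, where 50.7% of all genes did. The median difference was 0.03 log2. At an unadjusted p under 0.05, 2 were higher (9.09%, against 3.53% of all genes) and 0 lower. These 2 were the CREB coactivators Crtc2 (0.20 ± 0.08, SE) and Crtc3 (0.19 ± 0.08, SE), followed by the calcium-responsive factor Mef2d (0.21). Creb1 itself differed by -0.02. Of 28 later or other activity-induced genes 17 averaged higher in Ahr-KO, against 50.7% of all genes. By the same unadjusted rule 3 were higher and 2 lower (17.9% together, against 17.1% of the early genes and 6.18% of all genes). The median difference was 0.05. The neurotrophin Bdnf differed by 0.14, Nrn1, which encodes neuritin, by 0.16 ± 0.07 (SE), the prohormone convertase Pcsk1 by -0.23 ± 0.09 (SE) and the kinase Pim1 by -0.25 ± 0.10 (SE). No gene of either list passed over all genes (lowest limma adjusted p = 0.797 in both). The means of both lists were highest on Ahr-KO array 2, as was that of the early genes, at 0.06 and 0.08 log2, but wild-type array 2 was not their lowest array.

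Markers of other cells moved with some of these arrays. The mean of 11 microglial genes was -0.18, 0.16 and 0.00 on Ahr-KO arrays 1 to 3, against 0.07, -0.05 and 0.00 on wild-type arrays 1 to 3, highest on Ahr-KO array 2, with average levels of 7.86 to 8.20 log2 in Ahr-KO and 7.99 to 8.11 in wild type. Of these 11, 5 averaged higher in Ahr-KO, against 50.7% of all genes. Cx3cr1 differed by -0.03, Siglech by -0.17, Trem2 by -0.13 and Aif1 by 0.20. Of 18 endothelial and mural genes 13 averaged higher in Ahr-KO, where 50.7% of all genes did. At an unadjusted p under 0.05, 4 were higher and 0 lower (22.2% higher, against 17.1% of the early genes and 3.53% of all genes). The mean of the 18 genes was 0.00, 0.03 and 0.10 on the Ahr-KO arrays, against -0.06, -0.08 and 0.00 on the wild-type arrays. Vwf differed by 0.49 ± 0.12 (SE), Tagln by 0.38, Abcb1a by 0.19 and Cldn5 by -0.23, and the average level was 7.46 to 7.56 in Ahr-KO and 7.39 to 7.46 in wild type. Several early genes, among them Ccn1, Klf4 and Ptgs2, are known to be expressed outside neurons too, and the part of other cells in the values was not tested.

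The choroid plexus list of 11 measured genes averaged 1.27, -0.48 and -0.48 on the Ahr-KO arrays, against -0.56, 0.69 and -0.44 on the wild-type arrays, at levels of 5.84 to 7.59 and 5.75 to 7.01 log2. Of the 11, 10 averaged higher in Ahr-KO, against 50.7% of all genes, with Cldn2 at 0.40, Sostdc1 at 0.31 and Kcne2 at 0.29. With this mean as a covariate 11 early genes (31.4%, all higher in Ahr-KO) had an unadjusted p under 0.05 instead of 6, where 3.84% of all genes were higher by that rule against 3.53% without the covariate, and 0 members passed after adjustment. Of 25 respiratory chain genes 5 averaged higher in Ahr-KO and 20 lower, where 50.7% of all genes averaged higher. The list means were -0.11, 0.06 and -0.08 on the Ahr-KO arrays, against 0.07, 0.05 and 0.00 on the wild-type arrays. Cox7a2 differed by -0.30, Cox4i1 by -0.30 and Cyc1 by -0.23. The 2 measured genes of the blood list, S100a8 (0.00) and S100a9 (-0.14), had probe sets dimmer than the median. Among the 10 hippocampal neuron genes 8 averaged higher in Ahr-KO, where 50.7% of all genes did. At an unadjusted p under 0.05, 1 was higher, Prox1 (10%, against 3.53% of all genes), and 0 lower. Prox1 differed by 0.28, Wfs1 by -0.37 and Fibcd1 by 0.16. The list mean stayed within 0.06 log2 of 0 on each array, but it averages genes that differed in opposite directions. Wfs1 ran from 9.75 on Ahr-KO array 1 to 10.72 on wild-type array 1. The part of neuron types in the early gene values was not tested.

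**Figure D4:**
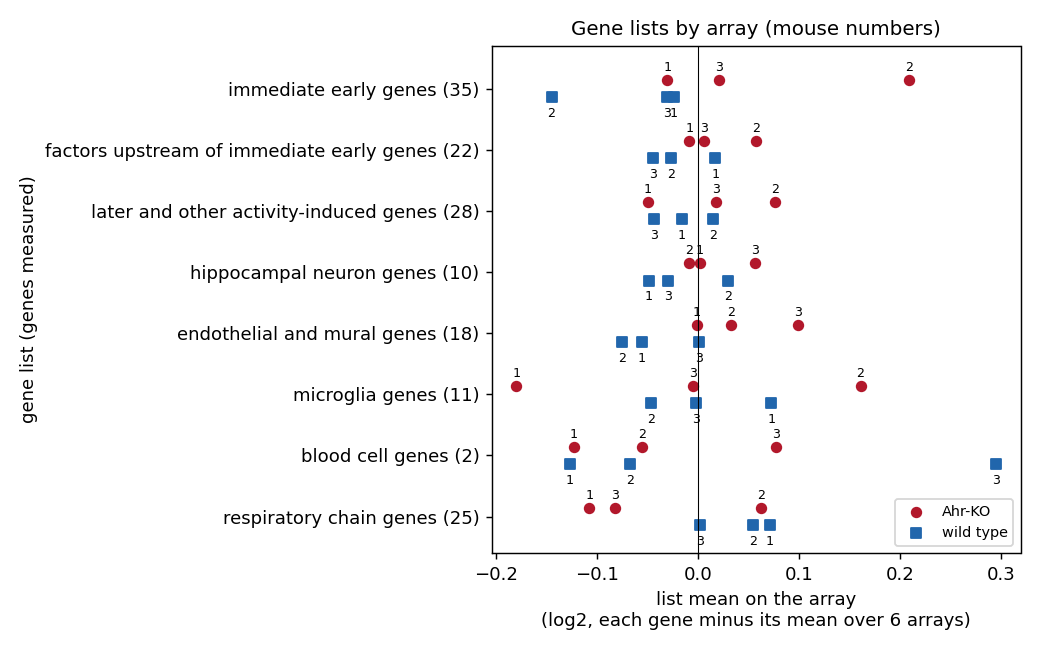
Mean of each gene list on each array in log2 units, every gene taken relative to its own mean over the 6 arrays (horizontal axis), with Ahr-KO as circles above and wild type as squares below, and mouse numbers beside the points. Immediate early genes reach 0.21 in Ahr-KO mouse 2 and -0.15 in wild-type mouse 2; the choroid plexus list, which reaches 1.27, is left off the axis.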

How the data were processed

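Trizol-extracted RNA of each hippocampus was labelled by the GeneChip WT PLUS method, per the labels' protocols. The authors deposited 1 log2 signal per probe set and array, per the submitters' processing notes made with RMA and Affymetrix Expression Console (versions not stated). RMA quantile-normalizes the arrays together, so an overall shift in RNA content is removed and differences tend to be compressed. The sources used here name no genome build for the probe sets. Batches and background could not be examined from these values, and the number of arrays limits the precision.

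The table held 41345 rows, of which the platform annotation paired 23521 with exactly 1 symbol (1814 had several, 16010 had none). Entrez IDs linked these to current symbols of RefSeq's GRCm38.p6 for 23328 rows, and the brightest probe set was kept for the 1082 genes with several. Genotypes were compared over all 22180 genes with limma 3.58.1 in R 4.3.3 (lmFit, eBayes without trend, two-sided, Benjamini-Hochberg adjustment, threshold 0.05), with 4 residual and 4.33 prior degrees of freedom. Differences are Ahr-KO minus wild type, with limma's standard error (SE). The labels name separate mice for the arrays. The code was tested on simulated data, with the pass mark set on differences larger than that of any member. It was no check of the power to find differences as small as theirs.

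The members, the gene lists and the tests were chosen with earlier results of these data known. Values on every array are given for Fos, Egr1, Arc, Npas4, Nr4a1, Junb and Ccn1, the 8 members with the lowest p, the 5 with the widest range and those most and least like the mean of the others, and for others singled out after their values were seen. From other lists the first gene and up to 3 with the lowest p are named. Figures were drawn with matplotlib 3.10.9.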

Additional observations from a re-analysis of the deposited data

How the results depend on the processing

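The alternatives were an intensity trend in the variance model, array weights, quantile normalization, median centring, only genes at or above the median level, the mean of all probe sets, a replicate block, a choroid plexus covariate, and leaving out each array or the 2 high in choroid plexus genes (Ahr-KO 1 and wild type 2). Leaving out Ahr-KO array 2 and wild-type array 2 was added after seeing the data. No member passed adjusted p under 0.05 in any of the 16, the lowest being 0.274, for Ptgs2 in the run added after seeing the data. Over all genes 2 passed with the intensity trend and 0 otherwise. Members at unadjusted p under 0.05 numbered 11 with the choroid plexus covariate (31.4%, against 6.70% of all genes in that fit) and 3 to 10 when 1 array was left out. They numbered 3 without wild-type array 1 or 3 (8.57%, against 6.27% and 5.07% of all genes) and 10 without Ahr-KO array 1 (28.6%, against 5.95%). Same-numbered mice did not deviate together (r over genes = -0.15, -0.22 and 0.05), and with the replicate block 6 members had unadjusted p under 0.05 (17.1%, against 5.06% of all genes), as without it. Without the arrays with the highest and lowest member means, a choice that lowers the difference by construction, 8 members had unadjusted p under 0.05 (22.9%, against 7.93% of all genes), 5 of them with a lower mean in Ahr-KO. In that run the median difference was 0.032, the difference of the means 0.023 and the median pairwise r 0.026. With 1 array left out that r ran from 0.039 to 0.341.

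The difference kept its sign in all alternatives for 22 members and reversed for 13. Without Ahr-KO array 2 together with wild-type array 2, values were -0.339 for Fos, -0.016 for Fosb, 0.065 for Jun, -0.121 for Junb, -0.096 for Egr3, -0.002 for Klf4, -0.331 for Npas4, -0.092 for Ier2, -0.231 for Btg2 and 0.067 for Inhba. Leaving out the 2 choroid plexus arrays gave -0.022 for Fosl2, -0.132 for Klf4, -0.061 for Npas4 and -0.039 for Btg2. Array weights gave -0.015 for Egr3 and -0.027 for Btg2. With 1 array left out the ranges were -0.139 to 0.203 for Fos, -0.034 to 0.056 for Fosl2, -0.172 to 0.037 for Jun, -0.116 to 0.126 for Junb, -0.181 to 0.004 for Jund, -0.088 to 0.065 for Egr3, -0.084 to 0.209 for Klf4, -0.149 to 0.444 for Npas4, -0.111 to 0.081 for Btg2, -0.027 to 0.279 for Arc and -0.060 to 0.024 for Inhba. The runs that left out arrays had fewer samples, the run with array weights used all 6, and the cause was not tested otherwise. Genes averaging below the median of all genes, such as Ier2, Klf4, Atf3, Maff and Csrnp1, were not in the run on brighter genes.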
